A study of Mus musculus with 2 samples.

Results

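The collagen genes are described here in 4 mouse skin sections. The members were all gene symbols made of Col, a number, the letter a and a number, and 44 of the 19465 genes of the tables had such a symbol. By the type of chain they encode, 11 were fibrillar, 9 network-forming, 2 epidermal, 6 of the beaded filament type, 9 fibril-associated, 2 multiplexins, 3 other transmembrane collagens and 2 others. The skin came from female SKH-1 mice, a hairless strain, aged 10 to 12 weeks. One section was of normal skin (control) and 3 were of skin exposed to ultraviolet radiation (UVR), either left untreated, treated with 0.1% retinol or treated with 0.03% 9-cis HPR. The UVR dose, the vehicle and the number of mice were not given in the sources used here. Transcripts were captured with hybridised probes on Visium slides, whose barcoded spots each cover a small area that can hold several cells.

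Each group was 1 section, so no test between groups was possible, and the intervals given with the values are exact 95% intervals that cover counting error only. The control and UVR sections shared 1 capture area, and the treated sections shared another, so treatment and capture area cannot be told apart. Which section of an area is which rests on reading the label's upper section as the one at the smaller image row. Reading the spot grid instead exchanges the sections of each area, and 25 of the 39 gene differences of at least 2-fold in CPM then turn direction. The kept spots, those with at least 200 transcripts counted by unique molecular identifier (UMI), numbered 339 to 647 per section. Their totals were 326095 UMIs in control, 2558616 in UVR, 1414976 in the retinol section and 1249928 in the HPR section. Levels are CPM, a gene's counts scaled to the total UMIs of its section. For a section with 0 counts, 3 counts were set as a floor, which correspond to 1.17 CPM in UVR and 9.20 CPM in control. Different genes rest on different probes, so levels were compared between sections and not between genes.

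Collagens are triple-helical proteins of the extracellular matrix. In skin, fibroblasts make the fibrillar collagens I, III and V, which form the dermal fibres, while collagen IV builds the network of basement membranes. Keratinocytes make collagen XVII, a transmembrane collagen of hemidesmosomes, and contribute collagen VII, which forms the anchoring fibrils that tie the epidermis to the dermis.

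The promoter windows of 5 members are shown as examples. Col3a1, Col5a1, Col16a1 and Col13a1 had higher CPM in both treated sections than in UVR, whereas Col17a1 had lower CPM there. The higher CPM was not particular to these genes: every member with at least 100 UMIs except Col17a1 showed it. The sequences, from RefSeq (GRCm38.p6), are the 250 bases before each annotated start, written in the direction of transcription. For Col5a1, Col16a1 and Col13a1 this start lies inside the gene coordinates given below, so part of the window overlaps the gene. Capitals mark matches on either strand. The TATA box was searched as TATAAA, the CCAAT box by the letters of its name, the GC box as GGGCGG, the AP-1 site as TGANTCA, the nuclear receptor half-site as AGGTCA and the AP-2 site as GCCNNNGGC.
Col3a1: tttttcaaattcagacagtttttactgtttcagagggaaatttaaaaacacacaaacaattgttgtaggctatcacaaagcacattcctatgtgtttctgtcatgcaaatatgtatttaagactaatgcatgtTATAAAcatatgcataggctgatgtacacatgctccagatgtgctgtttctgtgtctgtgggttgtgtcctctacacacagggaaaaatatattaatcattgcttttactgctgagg
Col5a1: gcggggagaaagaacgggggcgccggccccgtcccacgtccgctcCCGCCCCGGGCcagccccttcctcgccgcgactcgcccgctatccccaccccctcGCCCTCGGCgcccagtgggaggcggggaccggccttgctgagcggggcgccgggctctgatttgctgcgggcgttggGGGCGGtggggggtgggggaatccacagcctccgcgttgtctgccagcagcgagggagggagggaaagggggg
Col16a1: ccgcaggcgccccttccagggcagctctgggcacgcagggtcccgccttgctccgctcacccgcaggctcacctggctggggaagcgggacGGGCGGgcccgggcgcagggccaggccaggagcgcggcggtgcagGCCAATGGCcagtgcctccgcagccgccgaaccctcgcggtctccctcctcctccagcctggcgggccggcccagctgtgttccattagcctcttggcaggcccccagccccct
Col13a1: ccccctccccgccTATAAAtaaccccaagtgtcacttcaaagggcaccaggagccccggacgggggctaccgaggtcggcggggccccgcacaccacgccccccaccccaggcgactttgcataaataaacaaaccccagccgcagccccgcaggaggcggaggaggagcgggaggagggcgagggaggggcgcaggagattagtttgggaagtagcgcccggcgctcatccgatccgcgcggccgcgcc
Col17a1: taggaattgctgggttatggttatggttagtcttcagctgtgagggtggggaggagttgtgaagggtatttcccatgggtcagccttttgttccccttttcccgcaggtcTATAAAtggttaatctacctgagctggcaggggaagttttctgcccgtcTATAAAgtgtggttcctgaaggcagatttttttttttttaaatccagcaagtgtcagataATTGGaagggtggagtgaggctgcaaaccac
The windows lie at chr1:45311288-45311537 (plus strand) for Col3a1, chr2:27886175-27886424 (plus) for Col5a1, chr4:130047590-130047839 (plus) for Col16a1, chr10:61979109-61979358 (minus) for Col13a1 and chr19:47692043-47692292 (minus) for Col17a1.

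The windows differed in composition: 35.2% of bases were G or C in Col3a1, 46.0% in Col17a1, 68.8% in Col13a1, 75.6% in Col16a1 and 76.4% in Col5a1. The A- and T-rich Col3a1 window held a TATA box match at position -117 and no other match, counting the start as position 0. Col13a1 held a TATA box match at position -237, and Col17a1 held 2 TATA box matches and a CCAAT box match at position -31. Col16a1 held a CCAAT box match at position -113 that overlaps its AP-2 match at position -114, and in Col5a1 a GC box match overlaps an AP-2 match. Of the 13 members with at least 100 UMIs, 11 had a window, all but Col1a1 and Col5a2. Of these 11, 7 held a CCAAT box match, 6 a GC box, 4 an AP-2 site, 3 a TATA box, 1 a half-site (Col7a1, at position -140) and 0 an AP-1 site. Among all 32851 windows of that length, 33.8% held a CCAAT box match, 32.7% a GC box, 13.7% an AP-2 site, 12.4% a TATA box, 14.0% a half-site and 6.75% an AP-1 site. A match describes the letters of a window and not a bound site.

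Over the 4 sections, 10801 collagen UMIs were counted, of which 75.9% came from 5 members: Col1a2, Col5a1, Col3a1, Col16a1 and Col1a1. Of the 44 members, 13 had at least 100 UMIs, 9 had 20 to 99, 16 had 1 to 19 and 6 had 0. Those with 0 were Col9a1, Col11a1, Col19a1, Col24a1, Col25a1 and Col26a1. Summed over all members, collagens were at 3217 CPM (3025 to 3418) in control, 1103 (1063 to 1145) in UVR, 2141 (2065 to 2218) in the retinol section and 3120 (3023 to 3220) in the HPR section. The UVR section was the lowest and control and HPR the highest, and the intervals of control and HPR overlapped.

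Summed collagen CPM was 2.92-fold lower in UVR than in control (2.71 to 3.13), 1.94-fold higher with retinol than in UVR (1.84 to 2.04) and 2.83-fold higher with HPR than in UVR (2.69 to 2.97). The comparisons of retinol and of HPR share the UVR section. The direction of the first depended on the scale. Collagen UMIs per kept spot, a scale added after seeing the data, were 3.09 in control, 4.36 in UVR, 5.57 in the retinol section and 6.06 in the HPR section. On that scale UVR was 1.41-fold higher than control (1.31 to 1.52). The median spot of the keratin-rich layer, 1 of 3 tissue layers, held 5754 UMIs of all genes in UVR and 935 in control. The treated sections were above UVR on both scales, by 1.28-fold for retinol and 1.39-fold for HPR per spot. Without Col1a2, the member with the most UMIs, the CPM differences were 2.68-fold lower in UVR, 2.02-fold higher with retinol and 2.63-fold higher with HPR.

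**Figure D1:**
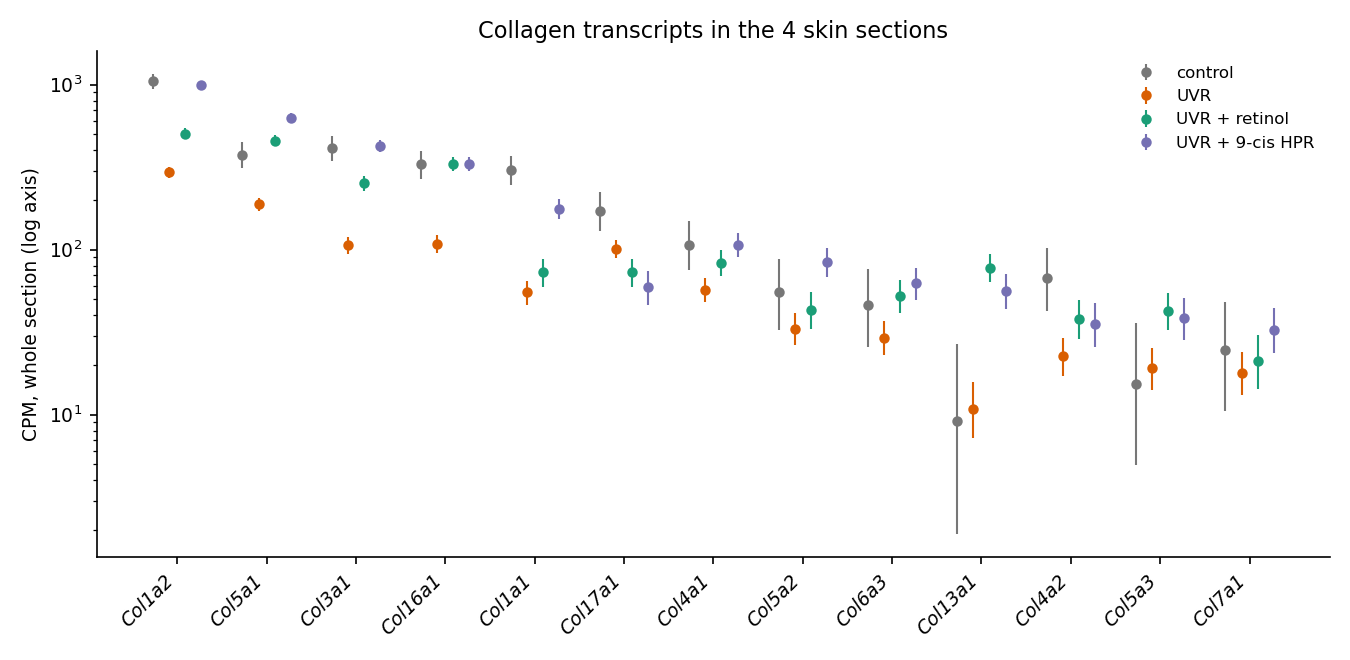
CPM of the 13 members with at least 100 UMIs in each section, with exact 95% counting intervals, on a log axis. Col1a2, Col3a1 and Col1a1 were lowest in the UVR section, Col13a1 was high only in the 2 treated sections (77.7 and 56.0 CPM), and Col17a1 was lowest with HPR (59.2 CPM).

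The fibrillar collagens carried 63.7% to 75.5% of the collagen UMIs of a section. They were 3.16-fold lower in UVR than in control by CPM (2.90 to 3.45), 1.98-fold higher with retinol than in UVR (1.86 to 2.12) and 3.36-fold higher with HPR than in UVR (3.16 to 3.56). Differences were counted for members whose UMIs in the pair of sections came to 100 or more. Of these, 5 of 8 were at least 2-fold lower in UVR than in control, against 7.61% of all 2510 genes tested. These were the fibrillar Col1a1, Col1a2, Col3a1 and Col5a1, and Col16a1. None of the 8 was at least 2-fold higher, against 12.4% of all genes, and the members' median log2 ratio was -1.30 against 0.09 over all genes. Per spot, 0 of the 8 were 2-fold lower, against 0.398% of all genes, and 4 were 2-fold higher, against 93.0% of all genes. On that scale a smaller share of the members than of all genes was 2-fold higher in UVR.

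With retinol, 5 of 12 members were at least 2-fold higher than in UVR, against 4.23% of all 2932 genes, and none was 2-fold lower, against 9.11%. The 5 were Col3a1, Col5a1, Col5a3, Col16a1 and Col13a1, and the median log2 ratio was 0.81 against -0.05 over all genes. Col13a1 was counted only through its 110 UMIs in the retinol section, against 28 in UVR. With HPR, 7 of 10 members were at least 2-fold higher than in UVR, against 3.41% of all 2813 genes, and none was 2-fold lower, against 9.21%. The 7 were Col1a1, Col1a2, Col3a1, Col5a1, Col5a2, Col6a3 and Col16a1, and the median log2 ratio was 1.47 against -0.13. Per spot, 2 of 12 members were 2-fold higher with retinol (Col13a1 and Col16a1), against 1.06% of all genes, and 1 was 2-fold lower (Col17a1), against 29.0%. With HPR, 0 of 10 were 2-fold higher per spot, against 0.391% of all genes, and 1 was 2-fold lower (Col17a1), against 60.0%. Between the treated sections, whose doses differ, 1 of 11 members was at least 2-fold higher with HPR, against 0.852% of all 2231 genes, and 0 were 2-fold lower, against 1.84%. That member was Col1a1, and the median log2 ratio was 0.36 against -0.09.

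Col1a1 and Col1a2 encode the chains of collagen I, the main fibre of the dermis. Col1a1 (chr11:94936224-94953042) was at 304 CPM in control, 55.1 in UVR, 72.8 with retinol and 177 with HPR, from 99, 141, 103 and 221 UMIs. It was the member with the lowest UVR to control ratio among the 8 counted, 5.51-fold lower (4.22 to 7.17), and it remained 1.34-fold lower per spot (ratio 0.746, 0.573 to 0.975). Col1a2 (chr6:4505618-4541543) was at 1046 CPM in control, 294 in UVR, 505 with retinol and 991 with HPR. UVR was 3.56-fold lower than control (3.12 to 4.05), whereas per spot it was 1.16-fold higher (1.02 to 1.32). With HPR, Col1a2 was 3.37-fold above UVR (3.08 to 3.70), and Col1a1 was 3.21-fold above (2.59 to 3.99). With retinol the ratios were smaller, at 1.72 (1.55 to 1.90) for Col1a2 and 1.32 (1.01 to 1.72) for Col1a1.

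Col3a1 (chr1:45311538-45349706) encodes collagen III, which co-assembles with collagen I and is prominent in young and healing skin. It was at 411 CPM in control, 106 in UVR, 253 with retinol and 423 with HPR. In CPM the HPR and control intervals overlapped, and UVR was the lowest section. Per spot, Col3a1 was at 0.395 UMIs in control, 0.420 in UVR, 0.658 with retinol and 0.821 with HPR, with a UVR to control ratio whose interval includes 1 (1.06, 0.862 to 1.32). Retinol was 2.38-fold above UVR (2.03 to 2.80) and HPR 3.98-fold (3.43 to 4.63), and per spot the ratios were 1.57 (1.33 to 1.84) and 1.95 (1.68 to 2.27).

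Collagen V, which sets the diameter of collagen I fibrils, was measured through 3 genes. Col5a1 (chr2:27886381-28039510) was at 377 CPM in control, 188 in UVR, 457 with retinol and 625 with HPR. HPR lay above control and UVR, and the interval of the retinol section overlapped that of control. Retinol was 2.43-fold above UVR (2.16 to 2.74) and HPR 3.32-fold (2.96 to 3.73). Col5a2 was at 55.2, 33.2, 43.1 and 84.0 CPM in the same order, and Col5a3 at 15.3, 19.2, 42.4 and 38.4. Col5a2 was highest with HPR, 2.53-fold above UVR (1.88 to 3.41), and its retinol to UVR ratio of 1.30 had an interval that includes 1 (0.918 to 1.82). Its HPR to UVR ratio was 3.29 (2.20 to 4.97) on the left image side of the sections and 1.67 (1.04 to 2.68) on the right. Col5a3 was 2.21-fold above UVR with retinol (1.49 to 3.30) and 2.01-fold with HPR (1.32 to 3.05), the latter from 97 UMIs and so outside the counts above. Per spot, the Col5a3 ratios were 1.46 (0.982 to 2.17) and 0.984 (0.647 to 1.50). The Col5a2 ratio with HPR was 1.24 per spot (0.923 to 1.67), and each of these intervals includes 1. Col5a1 stayed above UVR per spot, by 1.60-fold with retinol (1.42 to 1.80) and 1.63-fold with HPR (1.45 to 1.83). Its UVR level was below control by CPM but 2.05-fold above it per spot (1.68 to 2.52).

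UMI ratios between 2 collagens of a section do not depend on its total. There were 1.35 Col3a1 UMIs per Col1a1 UMI in control (1.04 to 1.77), 1.93 in UVR (1.57 to 2.38), 3.48 with retinol (2.78 to 4.37) and 2.39 with HPR (2.04 to 2.81). The retinol section was the highest, with an interval apart from those of control and UVR. Col1a2 UMIs per Col1a1 UMI numbered 3.44, 5.33, 6.93 and 5.61, lowest in control, although both genes encode chains of 1 protein. Col5a1 UMIs per Col1a2 UMI, a pair chosen after seeing the data, numbered 0.361 in control, 0.640 in UVR, 0.906 with retinol and 0.630 with HPR. The control interval of this last pair (0.291 to 0.445) lay below those of the other sections, and the retinol interval (0.813 to 1.01) lay above them. In the keratin-rich layer this pair was at 0.273, 0.935, 1.34 and 0.835 in the same order. In the middle layer, another tissue layer, it was at 0.386, 0.422, 0.512 and 0.434, with intervals that overlapped. Col3a1 per Col1a1 with HPR also differed by layer, at 1.87 in the keratin-rich layer and 3.38 in the middle layer.

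**Figure D2:**
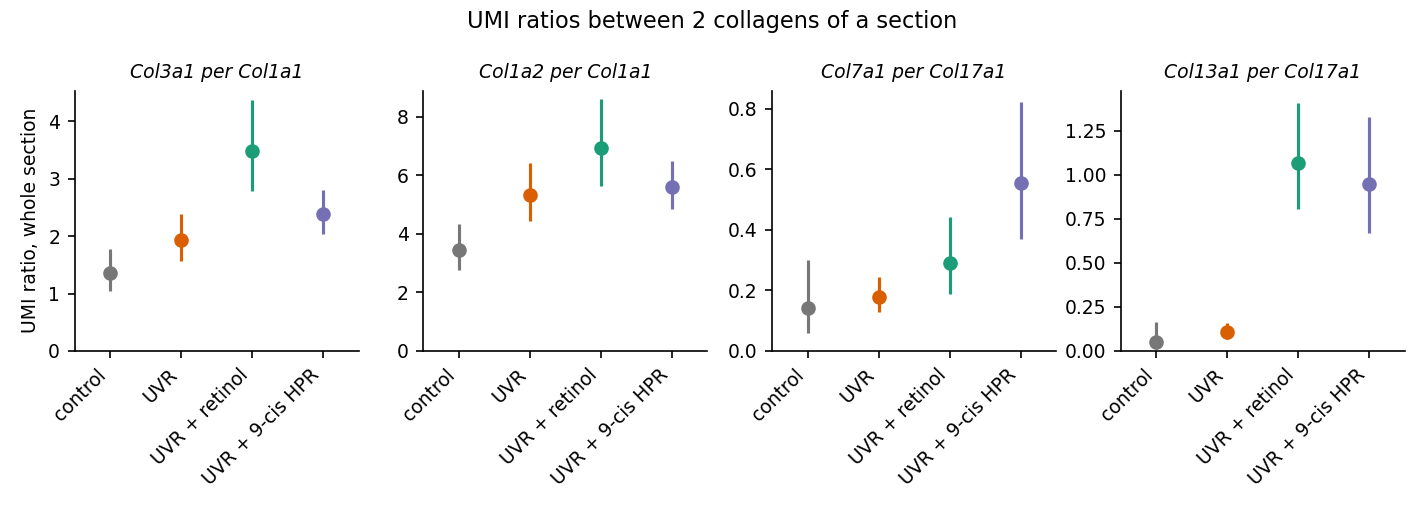
UMI ratios between 2 collagens in each whole section, with exact 95% counting intervals on linear axes that start at 0. Col3a1 per Col1a1 was highest with retinol (3.48), Col7a1 per Col17a1 was highest with HPR (0.554), and Col13a1 per Col17a1 was near 1 in both treated sections and near 0.1 or below in the others.

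The network class was led by Col4a1 and Col4a2, which encode the main chains of basement membrane collagen IV and are transcribed in opposite directions from neighbouring starts. Col4a1 was at 107 CPM in control, 57.1 in UVR, 83.4 with retinol and 107 with HPR. Col4a2 was at 67.5, 22.7, 38.2 and 35.2 CPM. In CPM both were lowest in UVR, Col4a1 1.88-fold below control (1.26 to 2.74) and Col4a2 2.98-fold (1.73 to 4.94), the latter from 80 UMIs. Per spot the direction turned, with UVR above control by 2.19-fold (1.50 to 3.26) for Col4a1 and 1.38-fold (0.833 to 2.37) for Col4a2. With treatment, Col4a1 was 1.46-fold (1.14 to 1.88) and 1.88-fold (1.47 to 2.39) above UVR for retinol and HPR, but per spot these ratios were 0.961 and 0.922, with intervals that include 1. In CPM the HPR ratio of Col4a1 was 2.67 (1.92 to 3.74) on the left image side of the sections and 1.16 (0.778 to 1.69) on the right. Summed over its 9 genes, the class was 1.55-fold above UVR with retinol (1.27 to 1.90) and 1.78-fold with HPR (1.45 to 2.18), each less than the fibrillar ratio. Of the other 7 network genes, Col4a6 had the most UMIs, 21 over the 4 sections.

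Among the epidermal collagens, Col17a1 (chr19:47646341-47692042), the hemidesmosome collagen, was at 172 CPM in control, 101 in UVR, 72.8 with retinol and 59.2 with HPR, from 56, 259, 103 and 74 UMIs. It was the only member of the 12 tested for retinol and of the 10 tested for HPR that was lower there than in UVR, by 1.39-fold (1.10 to 1.76) and 1.71-fold (1.32 to 2.25). Per spot it was 2.11-fold lower with retinol and 3.48-fold lower with HPR. The retinol difference was uneven, with a ratio of 0.913 (0.650 to 1.27) on the left image side of the sections and 0.576 (0.405 to 0.805) on the right. Against control, Col17a1 was 1.70-fold lower in UVR by CPM and 2.42-fold higher per spot. The summed basal keratinocyte markers (Krt5, Krt14, Krt15, Trp63, Itga6 and Itgb4, all 6 detected in every section) were at 19292 CPM in control, 51256 in UVR, 31586 with retinol and 28270 with HPR. Their part in the Col17a1 difference was not tested.

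Col7a1 (chr9:108953586-108984875), the anchoring fibril collagen, was at 24.5, 18.0, 21.2 and 32.8 CPM, from 8, 46, 30 and 41 UMIs. HPR was 1.82-fold above UVR (1.17 to 2.84), and per spot the ratio was 0.895 (0.573 to 1.39). The other differences from UVR had intervals that include 1. Col7a1 UMIs per Col17a1 UMI numbered 0.143 in control (0.0588 to 0.301), 0.178 in UVR (0.127 to 0.244), 0.291 with retinol (0.187 to 0.441) and 0.554 with HPR (0.369 to 0.822). The HPR value was the highest, with an interval apart from those of control and UVR. Summed, the pair was at 0.789 of the UVR value with retinol (0.638 to 0.970) and 0.772 with HPR (0.617 to 0.960).

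Col13a1 (chr10:61838234-61979206) encodes a transmembrane collagen of cell junctions, known from the neuromuscular synapse. It was at 9.20 CPM in control, 10.9 in UVR, 77.7 with retinol and 56.0 with HPR, from 3, 28, 110 and 70 UMIs. Both sections of the treated area were high and both sections of the other area were low. Retinol was 7.10-fold above UVR (4.66 to 11.2), the highest ratio among the members tested, and HPR was 5.12-fold above (3.26 to 8.24), from 98 UMIs and so outside the count of 10. Per spot the ratios were 4.67 (3.06 to 7.35) and 2.51 (1.60 to 4.04). Because both sections of an area were alike, exchanging the sections of each area left log2 ratios of 2.61 and 3.08. Col13a1 UMIs per Col17a1 UMI, a pair chosen after seeing the data, numbered 0.0536 in control, 0.108 in UVR, 1.07 with retinol and 0.946 with HPR. Of the other members of the class, Col23a1 had 98 UMIs and was at 42.9, 18.8, 12.0 and 15.2 CPM, highest in control, and Col25a1 had none.

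Col16a1 (chr4:130047817-130099277) encodes collagen XVI, a fibril-associated chain that links fibres to cells near the epidermal junction. It was at 328 CPM in control, 108 in UVR, 331 with retinol and 330 with HPR. The intervals of control and both treated sections overlapped, and UVR lay below them. UVR was 3.03-fold lower than control by CPM (2.40 to 3.80) and 1.36-fold higher per spot (1.08 to 1.71). Retinol was 3.06-fold above UVR (2.63 to 3.56) and HPR 3.05-fold (2.61 to 3.57), and per spot 2.01-fold (1.73 to 2.34) and 1.50-fold (1.28 to 1.75). The retinol to UVR ratio held on both image sides, at 2.37 (1.90 to 2.97) and 3.82 (3.09 to 4.72). Of the other 8 fibril-associated genes, Col9a3 had the most UMIs, 44 over the 4 sections.

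Col6a3, a chain of the beaded filaments of collagen VI that surround cells, was at 46.0, 29.3, 52.3 and 62.4 CPM. It was 1.78-fold above UVR with retinol (1.28 to 2.49) and 2.13-fold with HPR (1.53 to 2.96), whereas per spot the ratios were 1.17 and 1.04, with intervals that include 1. The HPR difference of Col6a3 in CPM was uneven, with a ratio of 2.72 (1.74 to 4.29) on the left image side and 1.48 (0.870 to 2.49) on the right. Its partner chains Col6a1 and Col6a2 had 36 and 60 UMIs. The multiplexins Col15a1 and Col18a1, of vascular and epithelial basement membranes, had 26 and 34 UMIs and were together at 39.9 CPM in control (21.2 to 68.2) against 8.48 to 9.60 in the other sections.

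**Figure D3:**
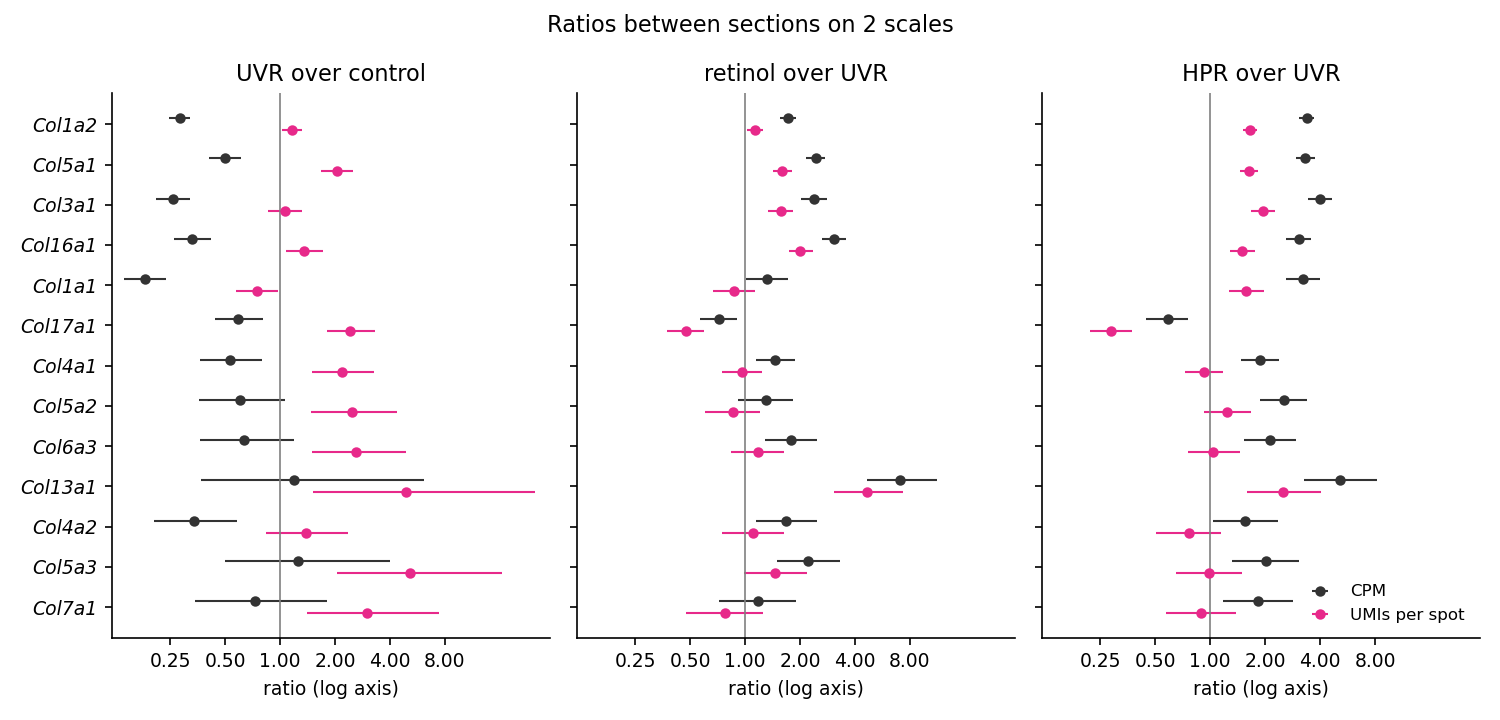
Ratios between sections for the 13 members with at least 100 UMIs over the 4 sections, by CPM and by UMIs per kept spot, with exact 95% counting intervals on log axes. For UVR over control the scales lie on opposite sides of 1 for most members. For both treatments Col1a2, Col3a1, Col5a1, Col13a1 and Col16a1 lie above 1 and Col17a1 below 1 on both scales, with intervals that exclude 1. Col6a3 also lies above 1, with per-spot intervals that include 1.

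To place the collagens in the tissue, spots of all sections were clustered without any collagen gene. The 6 regions were joined into 3 layers by marker genes, a rule set after the clusters were seen. Regions high in muscle markers formed the muscle layer, and the region high in fibroblast markers formed the middle layer. All remaining regions formed the keratin-rich layer, with no keratinocyte marker required. The keratin-rich layer joined regions led by Cntfr and Ticrr, by Krt77 and Fa2h, and by Aqp5 and Cnfn. The middle layer was 1 region, led by Atp6v0d2, Mmp12 and Ctsz, in which the median fibroblast marker had a log2 fold of 2.44 over the other regions, the macrophage markers 2.93 and the adipocyte markers 3.29. The muscle layer joined regions led by Cmya5 and Pvalb and by Shisa4 and Pdlim3. The keratin-rich layer held 65.7% of UMIs in control and 81.1% to 83.8% in the other sections, and the middle layer 22.4% in control against 5.19% to 9.57%. Of the 169 spots of the region led by Krt77, 142 were control spots, so the keratin-rich layer of control was made up of different regions from that of the others. In that region the median sebaceous marker had a log2 fold of 2.39, the suprabasal and cornified keratinocyte markers 1.35 and the basal ones 0.19. A spot of any layer can hold cells of a neighbouring one, and fewer cells of a type cannot be told apart from less RNA per cell.

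Summed, the fibrillar collagens were denser in the middle layer than in the keratin-rich layer of every section. Col1a2 was 6.90-fold higher there in control (5.43 to 8.82), 19.6-fold in UVR (16.8 to 22.8), 10.3-fold with retinol (8.83 to 12.1) and 7.67-fold with HPR (6.80 to 8.64). Col3a1 was 8.27-fold, 26.5-fold, 10.5-fold and 8.12-fold higher in the middle layer. The contrast between layers was steepest in the UVR section for both genes. The fibrillar Col11a2 did not share it, with 2 UMIs in the middle layer and 62 in the keratin-rich layer over all sections. Its middle to keratin-rich ratio was 0.332, with an interval that includes 1 (0.0393 to 1.25). For Col17a1 the middle to keratin-rich ratio was 0.499 in control (0.204 to 1.07), 1.49 in UVR (0.918 to 2.32), 0.991 with retinol (0.440 to 1.96) and 0.614 with HPR (0.193 to 1.50). For Col13a1 it was 1.32 in UVR (0.152 to 5.33), 1.51 with retinol (0.796 to 2.66) and 0.391 with HPR (0.0786 to 1.19), with 0 UMIs in the middle layer of control. Each of these intervals includes 1, and the point values lie on both sides of it. Col16a1 was denser in the middle layer by 2.69-fold in UVR (1.87 to 3.80) and 1.52-fold in each treated section (1.14 to 2.00), with an interval that includes 1 in control (1.19, 0.750 to 1.84). Its ratios were smaller than those of Col1a2 in every section. In the muscle layer, Col17a1 had 4 UMIs and Col7a1 had 0.

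Within the middle layer, summed collagens were at 8691 CPM in control (8028 to 9394), 7803 in UVR (7335 to 8292), 8246 with retinol (7729 to 8789) and 10854 with HPR (10272 to 11461). The HPR section was the highest, and the intervals of UVR and retinol overlapped. UVR was 1.11-fold below control (1.01 to 1.23), and per spot it was 1.26-fold above (1.14 to 1.39). Retinol differed from UVR by a ratio of 1.06 (0.967 to 1.16), and HPR by 1.39 (1.28 to 1.51). No member with at least 100 UMIs in that layer was 2-fold lower in UVR than in control (0 of 4, against 4.16% of all 361 genes) or 2-fold higher (4.99%). None was 2-fold higher with retinol (0 of 4, against 1.62% of 433 genes) or with HPR (0 of 5, against 2.04% of 441 genes), or 2-fold lower with either (2.77% and 4.08% of all genes). The network collagens of that layer were at 609 CPM in UVR and 309 with HPR, 1.97-fold lower (1.32 to 2.99). The epidermal class (203 and 109 CPM), the multiplexins (82.8 and 25.1 CPM) and the other transmembrane class (60.2 and 41.8 CPM) were also lower with HPR, with intervals of the ratio that include 1.

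Within the keratin-rich layer, summed collagens were at 1770 CPM in control, 746 in UVR, 1579 with retinol and 2200 with HPR. UVR was 2.37-fold lower than control (2.12 to 2.66), retinol 2.12-fold above UVR (1.98 to 2.27) and HPR 2.95-fold above UVR (2.77 to 3.15). Per spot, UVR was 2.40-fold above control (2.14 to 2.69), the reverse, and retinol and HPR were 1.50-fold (1.41 to 1.61) and 1.64-fold (1.54 to 1.75) above UVR. In CPM, 3 of 5 members were at least 2-fold lower in UVR than in control, against 7.65% of all 2040 genes, and 0 were 2-fold higher, against 16.8%. With retinol, 4 of 7 were at least 2-fold above UVR, against 5.11% of 2426 genes, and with HPR 6 of 7, against 2.82% of 2337 genes. None of the 7 was 2-fold lower with retinol (9.73% of all genes) or with HPR (9.93%).

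The layer shares of the abundant fibrillar genes differed between sections. For Col5a1 the keratin-rich share of UMIs was 22.0% in control (15.0 to 30.3), 59.9% in UVR (55.3 to 64.3), 67.9% with retinol (64.1 to 71.4) and 62.4% with HPR (58.9 to 65.8). In the same order, the share was 29.0%, 41.0%, 45.8% and 47.1% for Col1a2, 25.4%, 34.2%, 44.7% and 45.9% for Col3a1, and 25.3%, 33.3%, 50.5% and 58.8% for Col1a1. The Col5a1 share was above the others in UVR and with retinol, while in control, and for Col1a1 with HPR, the intervals overlapped. In keratin-rich CPM, Col5a1 was at 126 in control, 136 in UVR, 370 with retinol and 481 with HPR, with a UVR to control ratio whose interval includes 1 (1.08, 0.728 to 1.67) and both treated sections higher. Col16a1 in that layer was at 346, 109, 339 and 340 CPM, lowest in UVR. Per spot of that layer the UVR to control ratio was 1.79 (1.37 to 2.36) for Col16a1 and 6.16 (4.14 to 9.51) for Col5a1.

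**Figure D4:**
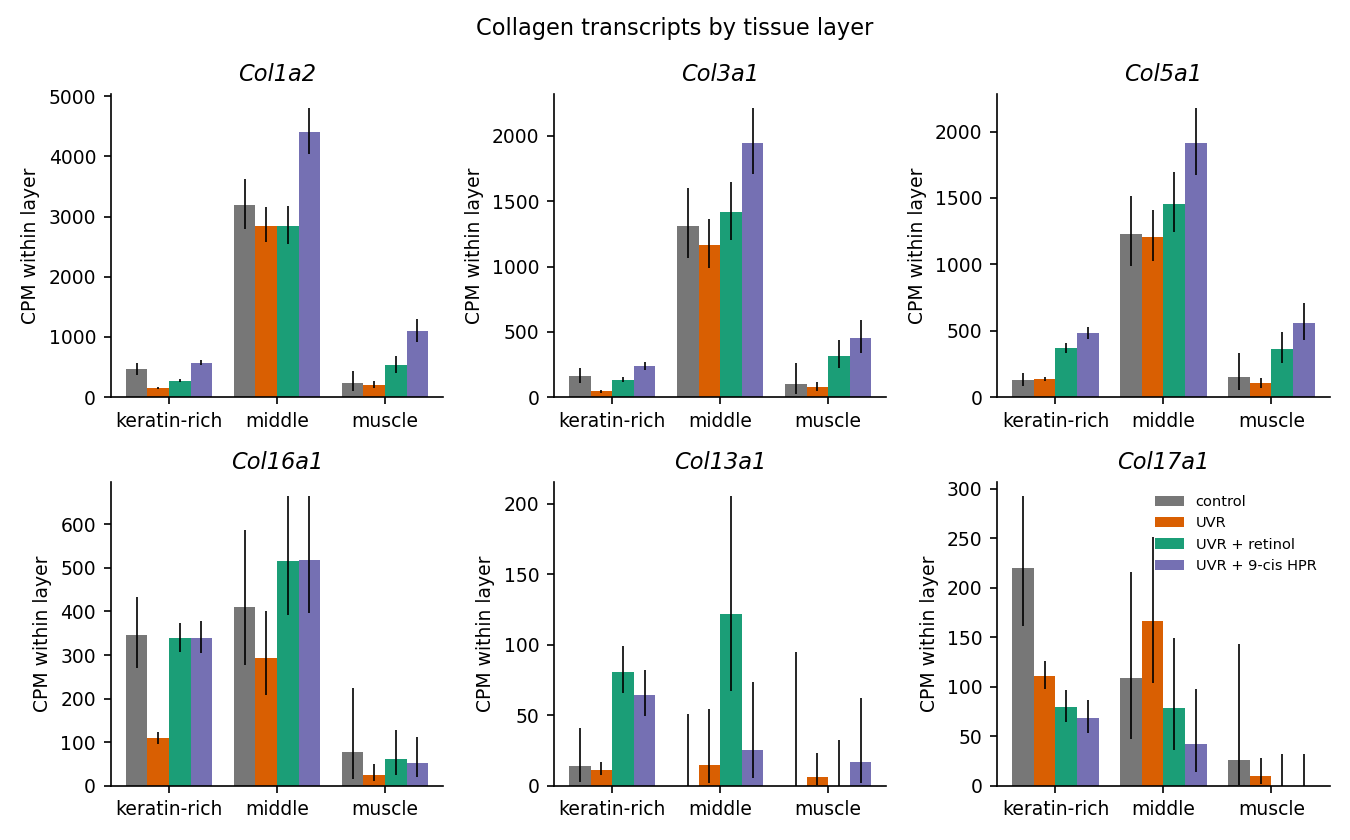
CPM of 6 members within each tissue layer and section, as bars from 0 with exact 95% counting intervals. Col1a2 and Col3a1 were highest in the middle layer of every section, and Col16a1 was lowest in UVR in the keratin-rich layer (109 CPM). In the keratin-rich layer Col13a1 was higher in both treated sections (80.9 and 64.1 CPM) than in the others. In the middle layer it was at 122 CPM with retinol, from 14 UMIs, and 25.1 CPM with HPR, from 3.

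By distance from the nearest keratin-rich spot, in units of the spacing between spots, fibrillar collagens in control were at 897 CPM at distance 0, 4891 at 1, 9608 at 2, 5713 at 3 and 1108 at 4 or more. In UVR the values were 389, 5253, 5483, 2402 and 784 CPM, and with HPR 1513, 8718, 8179, 7043 and 3163 CPM. The retinol section was at 897, 4444, 6281, 14795 and 2268 CPM, with the highest value at distance 3, from 39 spots. The highest level thus lay 1 to 3 spacings from the keratin-rich spots in each section. At distance 0, Col17a1 was at 220 CPM in control, 111 in UVR, 79.2 with retinol and 68.1 with HPR, and at distance 4 or more it had 1 UMI in control, 2 in UVR and 0 in either treated section.

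**Figure D5:**
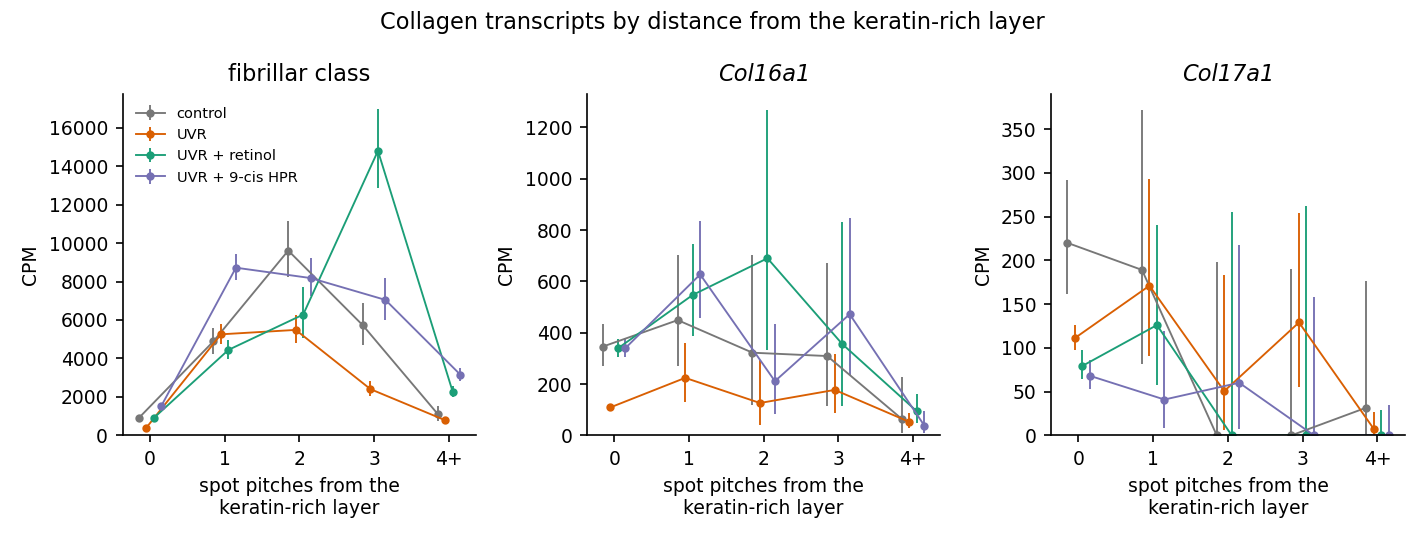
CPM of the fibrillar class, Col16a1 and Col17a1 by distance from the keratin-rich layer in spot pitches, with exact 95% counting intervals for each section. Fibrillar CPM was highest 1 to 3 pitches away (14795 CPM with retinol at 3), and Col17a1 was at 0 to 31.6 CPM at 4 or more.

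Markers of other cell types were set beside the collagens. The 12 fibroblast markers other than collagens (such as Dcn, Lum and Fbln2) summed to 350 CPM in control, 138 in UVR, 107 with retinol and 158 with HPR, and 10 to 12 of them had a UMI in each section. Those at 0 were Pdgfra and Fbln1 in control and Mfap5 with HPR. They were lower in UVR than in control, as the collagens were, but not higher with retinol than in UVR. The macrophage and dendritic markers (11 or 12 of 12 with a UMI, Itgax at 0 in control) were at 1319 CPM in control, 202 in UVR, 539 with retinol and 585 with HPR. The adipocyte markers (5 or 6 of 7) were at 209, 30.9, 56.5 and 51.2 CPM, and the endothelial markers (4 to 6 of 7) at 49.1, 10.9, 24.0 and 19.2 CPM. These 3 lists were lowest in UVR and highest in control. Some other lists differed in other ways. The mural and smooth muscle markers were highest in UVR, at 1138, 1663, 1114 and 1270 CPM in the same order. The sebaceous markers were lowest with HPR, at 1270, 116, 211 and 58.4 CPM. The skeletal muscle markers were at 44950, 35754, 18087 and 12830 CPM. Per fibroblast marker UMI there were 9.20 collagen UMIs in control, 8.02 in UVR, 19.9 with retinol and 19.7 with HPR. Control and UVR were the low pair on this scale and the treated sections the high pair. Scaled to these markers, the log2 ratio of summed collagens between UVR and control was -0.20 in place of -1.54. Both values lean on Fbln2, which was at 85.6 of the 138 CPM in UVR and 101 of the 350 CPM in control. Other markers differed more, such as Dcn (42.9 CPM in control and 12.9 in UVR) and Fstl1 (39.9 and 4.30). All markers but Pdgfra and Fbln1 were lower in UVR. These 2 were at 0 in control and at 0.782 and 0.391 CPM in UVR. Both values lie below the control floor of 9.20 CPM, so their direction cannot be told. The scale without Fbln2 was not tested. The fibroblast markers had 114 to 352 UMIs per section. The part of any of these marker lists in the collagen differences was not tested.

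Of 73 genes that act on collagen (modifying enzymes, chaperones, cross-linkers, proteases, receptors and TGF-beta signalling), 9 had at least 100 UMIs over control and UVR. Of these, 1 was at least 2-fold higher in UVR and 3 were at least 2-fold lower, against 12.4% and 7.61% of all genes, with a median log2 ratio of -0.52. With retinol 1 of 13 was 2-fold higher and 0 lower, against 4.23% and 9.11% of all genes, with a median of -0.03. With HPR 1 of 12 was higher and 0 lower, against 3.41% and 9.21%, with a median of 0.18. P3h4, of a complex that modifies collagen lysines, was at 70.5 CPM in control, 292 in UVR, 177 with retinol and 222 with HPR, highest in UVR and lowest in control. Serpinh1, the collagen chaperone, was at 46.0 CPM in control and 39.1 in UVR, and its ratios to UVR of 0.886 with retinol (0.616 to 1.26) and 0.942 with HPR (0.649 to 1.35) had intervals that include 1.

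Loxl1, a cross-linking oxidase, was at 123 CPM in control, 60.2 in UVR, 72.8 with retinol and 140 with HPR, lowest in UVR by CPM. Its log2 ratio of UVR over control was -1.03 by CPM, 1.01 per spot, 0.32 with fibroblast markers as the scale and 0.08 with the same layer weights in both sections. It was 2.33-fold above UVR with HPR (1.86 to 2.91). The lysosomal proteases Ctsb and Ctsl were 3.27-fold and 3.09-fold lower in UVR than in control, but per spot their log2 ratios were 0.33 and 0.41. Ddr1, a collagen receptor of epithelial cells, was at 960 CPM in control, 661 in UVR, 1214 with retinol and 1177 with HPR, 1.84-fold (1.72 to 1.97) and 1.78-fold (1.66 to 1.91) above UVR. Itgb1, the shared chain of the collagen-binding integrins, was 1.43-fold and 1.45-fold lower than in UVR. Smad3, a mediator of TGF-beta signals, was 2.45-fold above UVR with retinol (1.98 to 3.04) and 1.58-fold with HPR (1.23 to 2.02). Tgfb1 was 1.56-fold above with retinol (1.31 to 1.86) and at a ratio of 0.816 with HPR (0.649 to 1.02). The ratios of these receptor and signalling genes are by CPM. The 644 kept spots of HPR held fewer UMIs of Ddr1 (1471) and Smad3 (118) than the 647 of UVR (1690 and 153). Per spot both were thus lower with HPR, whereas with retinol (1718 and 207 UMIs in 544 spots) both were higher. Tgfb1 had 242 UMIs with retinol and 281 in UVR.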

How the data were processed

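Spatial transcript counts were analysed in 4 skin sections on 2 Visium capture areas. Per the submitters' processing notes, the authors used Space Ranger 2.0.0, Seurat 4.1.0 and the mm10 build. As deposited, the values are unscaled UMI counts for each spot and gene, made by the authors from ligated probe pairs on fresh-frozen tissue, per the labels' protocols; a gene's count reflects its probes as well as its RNA. The matrices were used as deposited, with 11 repeated gene symbols kept as separate entries, and 430 spot barcodes occur in both areas.

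Spots over tissue with at least 200 UMIs were kept: 339 of 465 in control, 647 of 939 in UVR, 544 of 787 with retinol and 644 of 984 with HPR. Counts were summed per section and divided by the total (CPM). With 1 section per group no test was run. Intervals are exact 95% Poisson intervals for a level and Clopper-Pearson intervals of the split of counts for a ratio; they cover counting error only. A difference counted as called was at least 2-fold with at least 100 UMIs over both sections. Spots of both areas were clustered with scanpy 1.11.5 and igraph 0.11.9 (10000 counts per spot, log scale, 2000 variable genes without collagens, 20 principal components, 15 neighbours, Leiden resolution 0.5). Spots can hold several cells, and no doublet caller was used. Other steps used Python 3.11.15, numpy 2.4.6, scipy 1.17.1, pandas 2.3.3 and matplotlib 3.10.9, and were checked on simulated data. All 44 members matched a RefSeq gene, and gene coordinates and promoter windows are those of RefSeq on GRCm38.p6.

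Every member with at least 100 UMIs over the 4 sections was named, with Col1a1, Col3a1, Col7a1 and Col17a1 in any case. From each list of genes that act on collagens, the genes with the highest and lowest ratios per comparison could be named. The members, lists and rules were chosen with earlier results of these data known. The scale of UMIs per spot, the joining of regions into layers and the pairs Col13a1 with Col17a1 and Col5a1 with Col1a2 were chosen after seeing the data. Alternatives covered scaling, spot and count minimums, a pseudocount of 1 CPM, image sides, layer weights, equal totals, clustering settings and the reading of upper and lower.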

Additional observations from a re-analysis of the deposited data

Results flagged for a closer look

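Col1a1 and Col4a1 differed from the UVR section in opposite directions in the keratin-rich and middle layers, a difference between layers that was not tested. The log2 ratio of Col1a1 with retinol over UVR was 0.98 in the keratin-rich layer, where it was at 22.3 CPM in UVR and 43.8 with retinol, and -0.79 in the middle layer, where it was at 602 and 349 CPM. The log2 ratio of Col4a1 with HPR over UVR was 1.23 in the keratin-rich layer, from 29.4 to 69.1 CPM, and -1.00 in the middle layer, from 384 to 192 CPM.

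Collagens also gave signal in spots over tissue with fewer than 200 UMIs, which the comparisons left out. Summed collagens there were at 18396 CPM with retinol (16782 to 20124) and 15225 CPM with HPR (14009 to 16519), both above the 10034 CPM of control (8530 to 11726) and the 9673 CPM of UVR (8558 to 10894). In each section these values exceed the collagen CPM of the kept spots.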

How the results depend on the processing

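No paired analysis was possible because each group was 1 section. Values are log2 ratios of CPM, and counts are of members at least 2-fold apart. These counts are given without the number of members tested or the share over all genes. Both can differ between settings, since a minimum of 20 UMIs lets in more members and another scale moves all genes. A count therefore describes its setting and is not set against a background here. With a pseudocount of 1 CPM, 39 of 39 gene differences of at least 2-fold kept that size and direction, with spots of at least 500 UMIs 37, with the median ratio of genes as the scale 36, on the left image side 37 and on the right 29. Among differences within layers, 14 of 15 did so at Leiden resolutions 0.3 and 0.8, and 13 of 15 with collagens in the clustering or with layers from marker shares. Among 24 differences of whole sections, all 24 did so with every spot over tissue, 20 with equal totals and 13 with the same layer weights in both sections. Fewer were kept with fibroblast markers as the scale (27 of 39), UMIs per spot (10 of 39) and the spot grid's reading of upper and lower (5 of 39). The cause of these changes was not tested, except that the grid's reading exchanges the sections by construction.

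For UVR over control, summed collagens were at -1.54, and at -1.43 with the median ratio as the scale, -0.20 with fibroblast markers, -1.34 with spots of at least 500 UMIs, -0.61 with the same layer weights, 0.50 per spot and 1.54 by the grid. Members 2-fold higher numbered 0, against 5 by the grid and 4 per spot. Members 2-fold lower numbered 5, against 1 with fibroblast markers, 9 with at least 20 UMIs, 2 with the same layer weights and 0 by the grid or per spot. The members' median was 0.04 with fibroblast markers, 1.30 by the grid and 0.74 per spot. By the grid, Col1a1 was at 2.46, Col1a2 at 1.83, Col3a1 at 1.95, Col5a1 at 1.00, Col16a1 at 1.60, Ctsb at 1.71, Ctsl at 1.63, Loxl1 at 1.03 and P3h4 at -2.05. Per spot, Col1a2 was at 0.21, Col3a1 at 0.09, Col5a1 at 1.03, Col16a1 at 0.44, Ctsb at 0.33, Ctsl at 0.41 and Loxl1 at 1.01. With fibroblast markers Col5a1 was at 0.34 and Loxl1 at 0.32, and with the same layer weights Loxl1 was at 0.08. In the keratin-rich layer by the grid, summed collagens were at 1.25, Col1a2 at 1.66, Col3a1 at 1.85 and Col16a1 at 1.67, and per spot they were at 1.26, 0.84, 0.66 and 0.84.

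For retinol over UVR, summed collagens were at 0.96, and at 0.84 with the median ratio, 1.31 with fibroblast markers, 0.74 on the left, 1.16 on the right, 0.76 with the same layer weights, 0.35 per spot and -0.04 by the grid. Members 2-fold higher numbered 5, against 8 with fibroblast markers or at least 20 UMIs, 3 with the same layer weights, 2 on the left, with equal totals or per spot, and 0 by the grid. Members 2-fold lower numbered 0, against 1 with at least 20 UMIs, by the grid or per spot. By the grid, Col16a1 in the keratin-rich layer was at -0.02.

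For HPR over UVR, summed collagens were at 1.50, and at 1.34 with the median ratio, 1.30 with fibroblast markers, 1.37 on the right, 1.23 with the same layer weights, 1.40 with equal totals, 0.47 per spot and -0.59 by the grid. Members 2-fold higher numbered 7, against 11 with at least 20 UMIs, 4 with equal totals, 1 by the grid and 0 per spot. Members 2-fold lower numbered 0, against 3 by the grid and 1 per spot. By the grid, the members' median was -0.53, Col1a1 was at -2.06, Col1a2 at -1.05, Col3a1 at -0.70, Col5a2 at -0.36 and Loxl1 at -0.75. In the keratin-rich layer by the grid, summed collagens were at -0.17, Col1a1 at -1.41, Col1a2 at -0.75, Col3a1 at -0.24 and Col16a1 at -0.03.

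For HPR over retinol, summed collagens were at 0.54, and at -0.02 with fibroblast markers, 0.82 on the left, 0.20 on the right, 0.12 per spot and -0.54 by the grid. Members 2-fold higher numbered 1, against 3 on the left, 2 with spots of at least 500 UMIs, and 0 with fibroblast markers, on the right, by the grid or per spot. Members 2-fold lower numbered 0, against 1 with fibroblast markers or by the grid. Col1a1 by the grid was at -1.28, and in the keratin-rich layer Col1a1 was at -1.55 and Col1a2 at -1.06.

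Depth limits the control section most: 3 counts there are 9.20 CPM, against 1.17 in UVR, and Col13a1 had 3 UMIs in it. With 1 section per group, the spread between animals was not measured.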
